A study of Homo sapiens with 6 samples.

Results

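Complex I, the NADH:ubiquinone oxidoreductase of the inner mitochondrial membrane, was followed through every gene whose symbol begins with NDUF. These were 48 of the 19470 gene symbols counted by RNA sequencing in A549 cells, a human lung adenocarcinoma line. They comprised the 7 core subunits encoded in the nucleus, 30 accessory subunits, 8 assembly factors of the NDUFAF series and 3 genes that carry the name without being complex I subunits or assembly factors. Activated cells had been exposed to osteoclast conditioned medium, that is, medium from the bone-resorbing cells, and dormant cells had been put through an induction of dormancy. There were 3 libraries of each, all from A549 cells labelled wild type. The sources used here do not say how dormancy was induced, whether both groups had the same base medium, or whether each library had its own culture. The p-values therefore reflect library-to-library spread alone, and part of that spread may be technical.

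Complex I takes electrons from NADH and passes them through a flavin and a chain of iron-sulfur clusters to ubiquinone, while it pumps protons out of the mitochondrial matrix. Its L-shaped structure has a peripheral arm, made of an NADH-oxidising N module and a ubiquinone-reducing Q module, and a membrane arm that pumps. Core subunits carry the catalysis and are conserved from bacteria, accessory subunits surround and stabilise them, and assembly factors build the modules without remaining in the finished enzyme. In proliferating cancer cells complex I is known for restoring the NAD+ that aspartate synthesis needs. The subunits encoded by mitochondrial DNA were not analysed here.

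Total counts lay between 34128471 and 36667725 per library. The NDUF genes together took 0.267%, 0.240% and 0.248% of the counts of the activated libraries, against 0.203%, 0.201% and 0.200% of those of the dormant libraries. The log2 fold changes of 8 epithelial markers of A549 cells ran from -1.07 to 1.24, with a median of 0.11. Of these markers 4 were higher, 2 lower and 2 not past the threshold. Among them the keratins KRT8 and KRT18 averaged 3460 ± 168 and 1980 ± 140 CPM in activated cells and 1672 ± 71.8 and 1039 ± 25.3 CPM in dormant cells (SD, n = 3 each), where CPM is the count scaled to a common TMM-adjusted library size. KRT19 averaged 435 ± 44.96 CPM in activated and 478 ± 67.0 CPM in dormant cells, and NQO1 719 ± 34.6 CPM in activated and 1177 ± 14.7 CPM in dormant cells. EPCAM was low, at 0.611 ± 0.185 CPM in activated and 1.28 ± 0.513 CPM in dormant cells. Values of the other listed markers, CDH1, AKR1B10 and AKR1C1, are not given here. Of 14 osteoclast and myeloid markers, 6 (TYROBP, AIF1, DCSTAMP, OCSTAMP, CALCR and C1QA) had 0 counts in all libraries, and the 14 summed to between 18.8 and 19.96 CPM in activated libraries and between 9.76 and 12.1 CPM in dormant libraries. Of the 6 of them that were tested, CD14, CSF1R, LAPTM5 and MMP9 were higher and ACP5 and CTSK lower, with log2 fold changes from -3.43 for ACP5 to 3.22 for LAPTM5 and a median of 2.73. The part of other cells in the differences below was not tested.

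Most complex I transcripts were higher in activated than in dormant cells. Of the 48 genes, 47 had enough counts to be tested, and 33 were higher and 5 lower in activated cells (edgeR, quasi-likelihood test, threshold of 0.05 on the adjusted p), while 9 did not pass. Over all 13336 tested genes, 73.7% were called, 36.5% as higher and 37.2% as lower, so 80.9% of the members called is near the background, whereas 70.2% called higher is above the share for all genes. Among the 37 core and accessory subunits of the enzyme, 28 were higher, 3 lower and 6 did not pass. The median log2 fold change of the members was 0.47, against -0.02 for all tested genes. After a correction for gene length these medians were 0.24 and -0.009. Activated and dormant libraries were fully separated for 39 of the 47 members, beside 76.5% of all tested genes. Scaled by total counts instead, 28 members were higher and 8 lower, beside 3941 higher and 5998 lower over all genes, and the median over all genes shifted by -0.14 on the log2 scale under that scaling. In bulk RNA, fewer cells with a transcript and less of it per cell cannot be told apart.

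Changes of at least 2-fold were few. They were seen as rises in 5 members, the assembly factors NDUFAF3 and NDUFAF8, the core subunit NDUFS3 and the accessory subunits NDUFA3 and NDUFS5, and as a fall in 1 member, NDUFA4L2. Over all tested genes 11.2% rose and 11.0% fell by that much. Among the 37 subunits of the enzyme, the log2 fold changes ran from -0.42 for NDUFA5 to 1.19 for NDUFA3. The plot of fold changes shows the classes side by side.

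**Figure D1:**
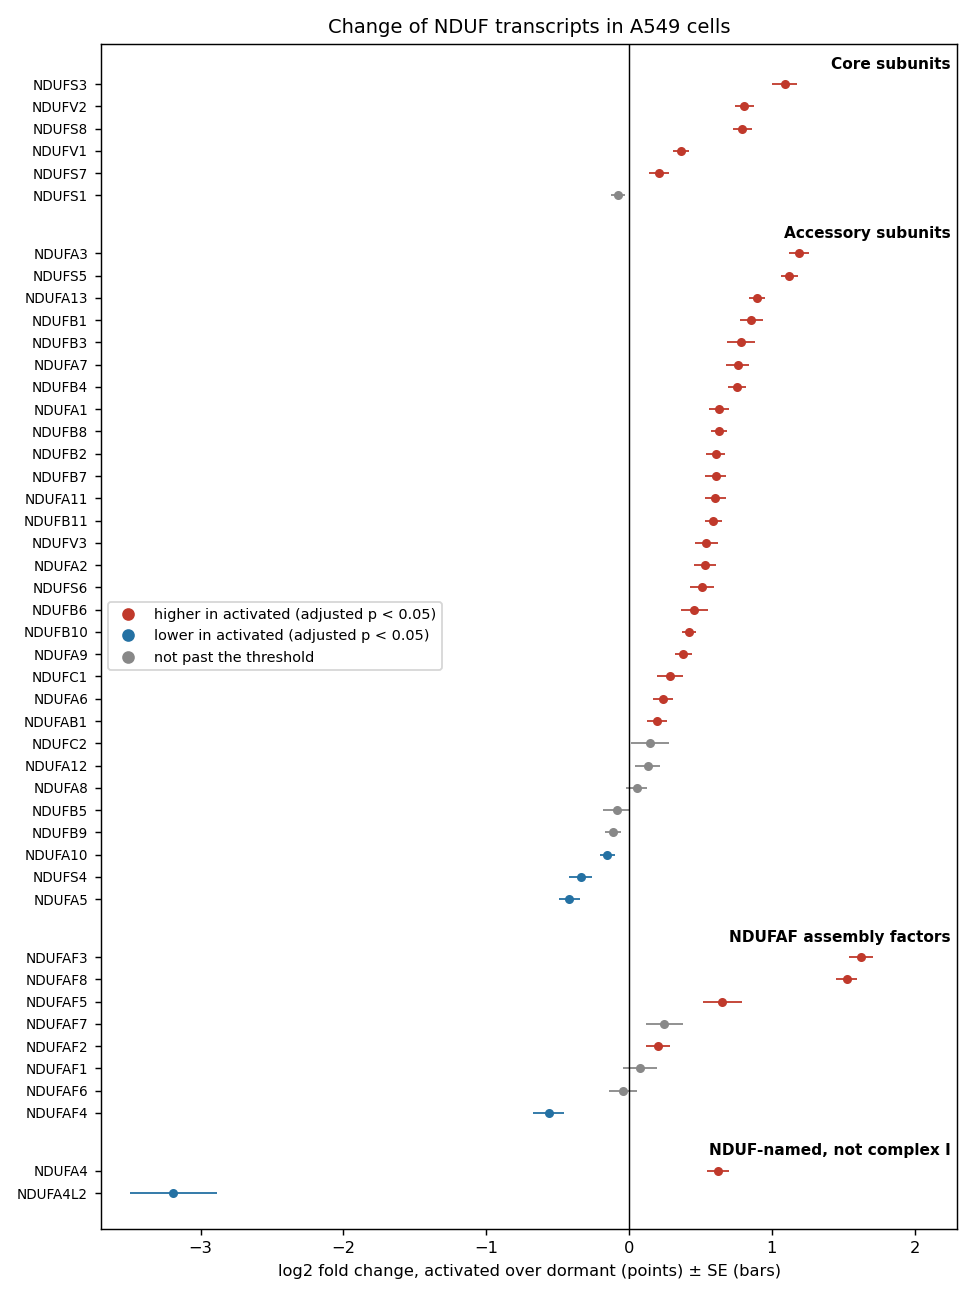
Log2 fold change of 46 of the 47 tested NDUF genes, activated over dormant (point), with its standard error (bar), by class and ordered by size within a class. Red points were higher and blue points lower at an adjusted p of 0.05, and grey points did not pass. Most subunits lie between 0 and 1.2, the assembly factors spread from -0.56 to 1.63, and NDUFA4L2 stands at -3.19.

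Of the 7 core subunits, 6 rose and NDUFS1 did not pass, with a median log2 fold change of 0.47. Among all tested genes, 36.5% were called higher. NDUFS3, a core subunit of the Q module (chromosome 11, 47579074 to 47584562, GRCh38), had 55.5, 48.6 and 45.9 CPM in activated cells and 25.9, 22.7 and 21.9 CPM in dormant cells. Every activated library was far above every dormant library, a 2.13-fold rise (log2 fold change 1.09 ± 0.09 SE, adjusted p = 2.22e-08, edgeR). NDUFV2, which holds an iron-sulfur cluster beside the NADH site, had 85.5, 71.3 and 78.1 CPM in activated cells and 44.7, 45.4 and 43.9 CPM in dormant cells. NDUFS8, which carries a pair of iron-sulfur clusters in the Q module, had 139, 122 and 140 CPM in activated cells and 78.9, 71.8 and 80.7 CPM in dormant cells. These rises were of similar size, 1.75-fold and 1.73-fold, and neither gene's groups overlapped.

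NDUFV1, which binds NADH and the flavin, had 118, 118 and 108 CPM in activated cells and 89.1, 84.5 and 93.9 CPM in dormant cells, a 1.29-fold rise. The lowest activated library lay above the highest dormant library. NDUFS7, which holds the cluster next to ubiquinone, had 38.0, 36.4 and 33.9 CPM in activated cells and 32.9, 30.9 and 30.0 CPM in dormant cells (log2 fold change 0.21 ± 0.07 SE, adjusted p = 0.0155). This small rise did not pass under total-count scaling (0.07 on the log2 scale, adjusted p = 0.394), without activated replicate 1 (adjusted p = 0.0502), without dormant replicate 3 (adjusted p = 0.0625) or after a correction for gene length (adjusted p = 0.23). NDUFS1, the large subunit with several iron-sulfur clusters of the N module, had 86.9, 84.5 and 86.3 CPM in activated cells and 87.1, 91.4 and 93.2 CPM in dormant cells. Its groups lay close together without overlapping (log2 fold change -0.08, adjusted p = 0.185). It was called lower under total-count scaling (-0.22 on the log2 scale, adjusted p = 0.00159). The same call came from all 3 limma fits of FPKM, the authors' length-scaled values (adjusted p = 0.00939, 0.00908 and 0.0105). After the gene length correction it stood at 0.079 (adjusted p = 0.214).

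**Figure D2:**
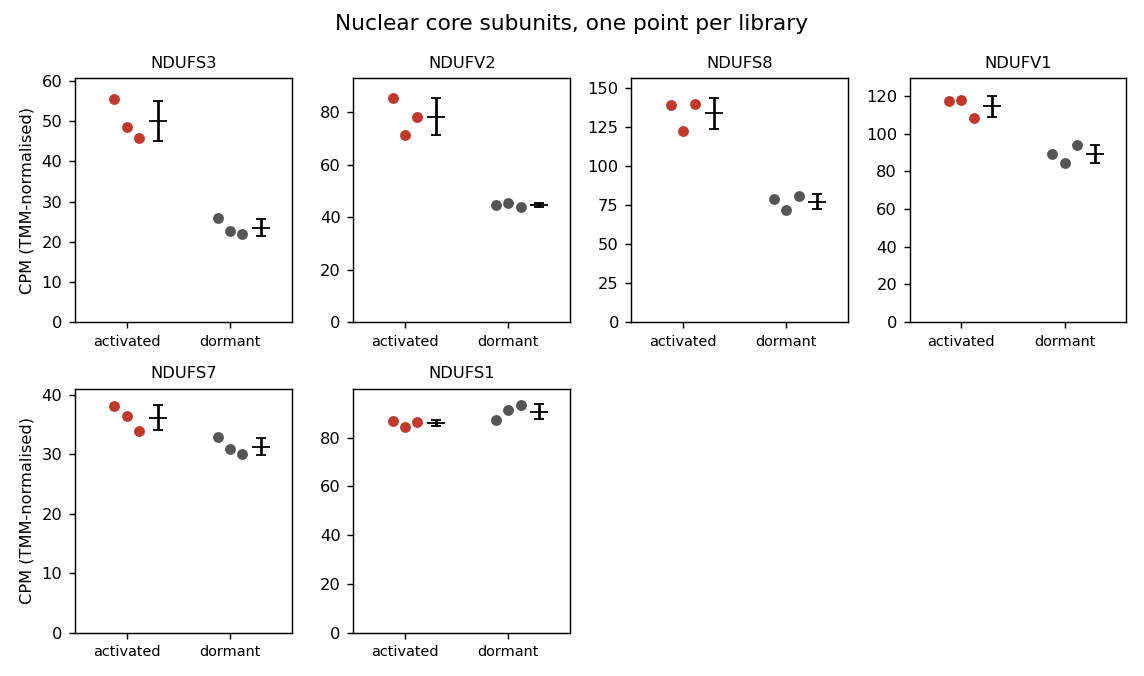
CPM after TMM scaling of 6 nuclear core subunits in each library, activated in red on the left and dormant in grey on the right, with the mean and SD in black; vertical axes start at 0. The activated libraries stand above the dormant ones in 5 panels, most clearly for NDUFS3, and below them in the NDUFS1 panel.

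Ratios between core transcripts, picked after the values were seen, also differed between the groups. The ratio of NDUFV2 to NDUFS1, in FPKM (counts scaled by gene length and library total, the authors' values), was 9.53, 8.17 and 8.77 in activated libraries and 4.97, 4.81 and 4.56 in dormant libraries. A ratio within a library does not depend on how libraries are scaled. The 3 activated ratios all lay above the 3 dormant ones, a change of 1.84-fold (two-sided exact permutation test, p = 0.1, the smallest that 3 libraries against 3 allow). The ratio of NDUFV1 to NDUFS1 averaged 10.3 ± 0.565 in activated and 7.56 ± 0.411 in dormant libraries (SD, n = 3 each). Such ratios can still shift with gene length. NDUFS1 was the longest member, at 11774 bases, against 1215 for NDUFV2 and 1533 for NDUFV1. After the gene length correction the log2 fold changes of NDUFV2, NDUFV1 and NDUFS1 were 0.66, 0.24 and 0.08, against 0.81, 0.36 and -0.08 before it. In all, 7 ratios within libraries were computed, chosen after the values were seen. With p adjusted over the 7, the ratios given here that separated the groups had an adjusted p of 0.117. Since the pairs were picked from these same values, the p-values of the ratios, here and below, carry no weight as tests. Per length, NDUFS8 had the highest level of the core subunits, at 173 ± 12.7 FPKM in activated and 110 ± 5.89 FPKM in dormant cells. NDUFS1 had the lowest, at 6.95 ± 0.0933 FPKM in activated and 8.08 ± 0.329 FPKM in dormant cells, with the authors' gene length of 11774 bases.

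Of the 30 accessory subunits, 22 rose, 3 fell and 5 did not pass, with a median log2 fold change of 0.52. The shares of all tested genes were 36.5% higher and 37.2% lower. After the gene length correction 18 rose and 4 fell, with a median of 0.21. NDUFA3, a membrane-arm subunit beside the mitochondrially encoded ND1 (chromosome 19, 54102855 to 54107568), had 51.7, 46.0 and 47.0 CPM in activated cells and 20.8, 21.3 and 21.4 CPM in dormant cells (log2 fold change 1.19 ± 0.07 SE, adjusted p = 8.18e-10). NDUFS5, a subunit of the membrane arm on the intermembrane-space side (chromosome 1, 39026350 to 39034615), had 157, 141 and 139 CPM in activated cells and 67.8, 63.9 and 68.7 CPM in dormant cells, a 2.18-fold rise. In both genes the activated libraries were far above the dormant libraries. Per length NDUFS5 was the most abundant NDUF transcript of activated cells, at 282 ± 19.3 FPKM, against 143 ± 4.39 FPKM in dormant cells.

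The next largest rises were in 3 further membrane-arm subunits and 1 peripheral subunit. NDUFA13, also known as GRIM-19, had 89.9, 84.9 and 83.7 CPM in activated cells and 46.5, 44.6 and 47.6 CPM in dormant cells, a 1.86-fold rise. NDUFB1 had 30.3, 26.8 and 28.5 CPM in activated cells and 15.5, 16.3 and 15.5 CPM in dormant cells, a 1.81-fold rise. NDUFB3 had 26.1, 21.2 and 22.5 CPM in activated cells and 12.6, 14.2 and 13.7 CPM in dormant cells, a 1.72-fold rise. All 3 showed a clear gap between the groups. NDUFA7, which sits in the peripheral arm, had 28.8, 27.3 and 31.0 CPM in activated cells and 18.2, 16.3 and 16.9 CPM in dormant cells, a 1.69-fold rise, again without overlap.

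The other 16 accessory subunits that rose did so by 1.15-fold to 1.69-fold. NDUFB4, NDUFA1, NDUFB8, NDUFB2, NDUFB7, NDUFA11 and NDUFB11, all of the membrane arm, had log2 fold changes between 0.59 and 0.76, and NDUFV3, NDUFA2 and NDUFS6 of the N module between 0.51 and 0.54. Smaller rises were seen for NDUFB6, NDUFB10, NDUFA9, NDUFC1, NDUFA6 and NDUFAB1, the mitochondrial acyl carrier protein that also serves lipoic acid synthesis. Among these, NDUFC1, NDUFA6 and NDUFAB1 did not pass with total counts (adjusted p = 0.162, 0.237 and 0.466) or after the gene length correction, where NDUFAB1 stood at -0.07. NDUFAB1 also missed the threshold without activated replicate 1 (adjusted p = 0.065) and without dormant replicate 3 (adjusted p = 0.0528), and NDUFS6 after the length correction (adjusted p = 0.0829).

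The accessory subunits that fell were NDUFA5, NDUFS4 and NDUFA10. NDUFA5, of the Q module (chromosome 7, 123536997 to 123601651), had 30.6, 26.7 and 28.5 CPM in activated cells and 37.5, 40.8 and 36.3 CPM in dormant cells (log2 fold change -0.42 ± 0.07 SE, adjusted p = 0.000133). NDUFS4, a late-joining N-module subunit mutated in Leigh syndrome, had 34.9, 28.3 and 29.2 CPM in activated cells and 38.7, 38.1 and 39.9 CPM in dormant cells (log2 fold change -0.34, adjusted p = 0.00144). Every activated library lay below every dormant library in both. NDUFA10, of the membrane arm, had 72.2, 72.5 and 76.0 CPM in activated cells and 80.1, 84.0 and 81.4 CPM in dormant cells (log2 fold change -0.15, adjusted p = 0.0154). Its fall was small, and did not pass without dormant replicate 2 (adjusted p = 0.0641) or after the length correction (adjusted p = 0.695).

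Among the accessory subunits that did not pass, all had overlapping groups. NDUFB9, of the membrane arm, had 126, 114 and 118 CPM in activated cells and 133, 124 and 131 CPM in dormant cells (adjusted p = 0.0738). It was the most abundant NDUF transcript of dormant cells per length, at 165 ± 8.58 FPKM in activated and 196 ± 5.39 FPKM in dormant cells. It was called lower under total-count scaling (-0.25 on the log2 scale), in all 3 limma fits of FPKM (-0.25 in each), after the length correction (-0.41) and without activated replicate 1 (-0.15). NDUFA12, which takes the place of an assembly factor late in assembly, had 48.7, 40.7 and 40.2 CPM in activated cells and 43.6, 38.8 and 36.0 CPM in dormant cells, and was called lower only after the length correction (log2 fold change -0.23, adjusted p = 0.00909). NDUFB5 had 23.8, 18.8 and 21.1 CPM in activated cells and 23.9, 22.2 and 21.6 CPM in dormant cells. NDUFB5 was called lower under total-count scaling (-0.23 on the log2 scale, adjusted p = 0.0404) and in both limma fits of filtered FPKM (adjusted p = 0.0431 and 0.044). In each of these 3 genes activated replicate 1 was the highest of the activated libraries. NDUFA8 had 47.7, 39.6 and 43.4 CPM in activated cells and 44.2, 40.8 and 40.9 CPM in dormant cells. NDUFC2 had 16.7, 12.3 and 11.7 CPM in activated cells and 11.4, 12.5 and 13.0 CPM in dormant cells. In both, activated replicate 1 was the highest of all libraries.

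Activated replicate 1 was also the highest of the activated libraries for 34 of the 47 tested members, against 2 for replicate 2 and 11 for replicate 3. The summed level of the NDUF genes was 2808, 2521 and 2607 CPM in the activated libraries and 1947, 1893 and 1913 CPM in the dormant libraries. Without activated replicate 1 the median log2 fold change of the accessory subunits was 0.44 and that of all NDUF members 0.41.

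By position in the enzyme, each subunit gene was placed in a single module, with NDUFAB1 counted in the membrane arm. Of the 21 membrane-arm accessory subunits, 16 rose and 1 fell, with a median log2 fold change of 0.60. In the N module 5 of 8 subunits, core and accessory, rose and 1 fell (median 0.44). In the Q module 7 of 8 rose and 1 fell (median 0.43). Among all tested genes, 36.5% were called higher and 37.2% lower. The difference between modules was not tested, since genes are not replicates.

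Of the 8 assembly factors, 4 rose, 1 fell and 3 did not pass, with a median log2 fold change of 0.22. Over all tested genes 36.5% were called higher and 37.2% lower. The promoters of the 3 with the largest changes are shown because their transcripts moved most, as RefSeq's 250 bases before to 50 after the transcript start that lies farthest upstream, GRCh38.p14, plus strand. Capitals mark matches to a motif of NRF1 (GCGCATGCG), of ETS factors such as GABPA (CCGGAAGT) or of YY1 (AAGATGGCG), searched on both strands. NDUFAF3 is at chr3:49020202-49020501, NDUFAF8 at chr17:81239061-81239360 and NDUFAF5 at chr20:13784778-13785077.
NDUFAF3: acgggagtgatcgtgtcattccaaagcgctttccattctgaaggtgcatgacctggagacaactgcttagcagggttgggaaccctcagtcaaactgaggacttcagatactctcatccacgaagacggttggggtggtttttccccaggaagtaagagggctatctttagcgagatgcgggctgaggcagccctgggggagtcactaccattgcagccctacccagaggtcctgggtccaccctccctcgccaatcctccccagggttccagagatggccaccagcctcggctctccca
NDUFAF8: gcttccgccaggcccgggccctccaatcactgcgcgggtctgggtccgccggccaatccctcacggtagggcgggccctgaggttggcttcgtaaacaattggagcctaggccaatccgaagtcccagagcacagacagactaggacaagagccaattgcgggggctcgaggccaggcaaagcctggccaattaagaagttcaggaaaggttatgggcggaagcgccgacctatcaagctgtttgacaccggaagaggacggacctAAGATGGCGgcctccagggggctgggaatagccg
NDUFAF5: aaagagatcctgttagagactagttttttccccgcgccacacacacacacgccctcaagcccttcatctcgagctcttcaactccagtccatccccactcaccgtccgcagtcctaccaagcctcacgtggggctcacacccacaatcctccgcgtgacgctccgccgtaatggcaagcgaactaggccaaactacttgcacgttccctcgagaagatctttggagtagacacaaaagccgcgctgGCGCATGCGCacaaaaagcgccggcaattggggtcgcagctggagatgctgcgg
The NDUFAF8 window held a YY1 match just after the start, the NDUFAF5 window held an NRF1 match spanning the start in both orientations, which overlap since the motif is nearly palindromic, and none of the 3 motifs was in the NDUFAF3 window.

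Of 42 members with a promoter in the RefSeq table, 6 held the NRF1 motif (14.3%, against 4.04% of 10712 tested genes with a promoter), 7 the YY1 motif (16.7%, against 4.55%) and 2 the ETS motif (4.76%, against 9.62%). The NRF1 matches were in NDUFS7, NDUFS6, NDUFA5, NDUFA8, NDUFB4 and NDUFAF5, and the YY1 matches in NDUFS7, NDUFS4, NDUFA6, NDUFA7, NDUFA9, NDUFB8 and NDUFAF8. Genes that rose, such as NDUFB4, and genes that fell, such as NDUFA5 and NDUFS4, were both among them. These are matches of letters, and a window without one says only that those letters are not in it.

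NDUFAF3, which works on the Q module together with NDUFAF4 (chromosome 3, 49020452 to 49023495), had 34.1, 32.7 and 34.5 CPM in activated cells and 9.86, 11.8 and 11.2 CPM in dormant cells. The activated libraries were close to each other and far above the dormant ones, a 3.09-fold rise (log2 fold change 1.63 ± 0.09 SE, adjusted p = 2.89e-10, edgeR), the largest of all NDUF genes. NDUFAF4 itself (chromosome 6, 96889315 to 96897891) had 11.8, 9.74 and 10.9 CPM in activated cells and 14.8, 16.6 and 16.6 CPM in dormant cells. It fell by 0.56 on the log2 scale (adjusted p = 0.00026), with no overlap between groups. Within libraries the ratio of NDUFAF3 to NDUFAF4 in FPKM was 4.71, 5.50 and 5.18 in activated cells and 1.09, 1.17 and 1.10 in dormant cells. The partners' transcripts stood nearly level in dormant libraries and well apart in activated ones, a 4.58-fold change of the ratio (two-sided exact permutation test, p = 0.1, the smallest possible). NDUFAF3 shares 21.6% of its GENCODE exon bases with DALRD3 on the opposite strand, which rose 1.21-fold. The strand setting of the counting is not known here, and a share of exon bases does not say how many reads were affected. NDUFAF4 has 4 pseudogenes named after it, and how reads shared with them were counted is not known here either.

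NDUFAF8, which stabilises NDUFAF5 (chromosome 17, 81239311 to 81241310), had 50.9, 50.3 and 50.9 CPM in activated cells and 15.9, 18.5 and 18.5 CPM in dormant cells, a 2.88-fold rise (log2 fold change 1.53 ± 0.07 SE, adjusted p = 9.83e-11). NDUFAF5, which hydroxylates an arginine of NDUFS7, had 15.6, 11.2 and 13.5 CPM in activated cells and 7.69, 8.51 and 9.42 CPM in dormant cells, a 1.57-fold rise (adjusted p = 0.000547). Both partners rose without overlap between groups. The ratio of NDUFAF8 to NDUFAF5 in FPKM was 13.6, 18.8 and 15.7 in activated libraries and 8.60, 9.05 and 8.18 in dormant libraries (exact permutation p = 0.1, the smallest possible).

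NDUFAF2, a paralogue of NDUFA12 that acts late in assembly, had 28.6, 23.9 and 24.7 CPM in activated cells and 23.3, 22.2 and 21.6 CPM in dormant cells (log2 fold change 0.20, adjusted p = 0.0414). The groups nearly touched, and the call was lost under total-count scaling (adjusted p = 0.508), without activated replicate 1 (0.198), dormant replicate 2 (0.0882) or dormant replicate 3 (0.12), and turned to -0.12 after the length correction (adjusted p = 0.155). The ratio of NDUFA12 to NDUFAF2 in FPKM was 1.91, 1.91 and 1.83 in activated libraries and 2.102, 1.97 and 1.88 in dormant libraries, overlapping between groups (exact permutation p = 0.3).

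The other 3 assembly factors had overlapping groups. NDUFAF7, an arginine methyltransferase that acts early in assembly, had 17.7, 16.0 and 22.9 CPM in activated cells and 15.1, 18.1 and 14.5 CPM in dormant cells (log2 fold change 0.25, adjusted p = 0.0973). It passed without activated replicate 2 (log2 fold change 0.35, adjusted p = 0.014) and without dormant replicate 2 (0.35, adjusted p = 0.038), so single libraries decided the call. NDUFAF1, of the complex that builds the ND2 part of the membrane arm, had 10.1, 8.93 and 9.20 CPM in activated cells and 8.41, 9.11 and 9.14 CPM in dormant cells (adjusted p = 0.555). NDUFAF6, an early assembly factor, had 13.7, 13.6 and 14.0 CPM in activated cells and 14.2, 13.2 and 15.2 CPM in dormant cells (adjusted p = 0.695).

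**Figure D3:**
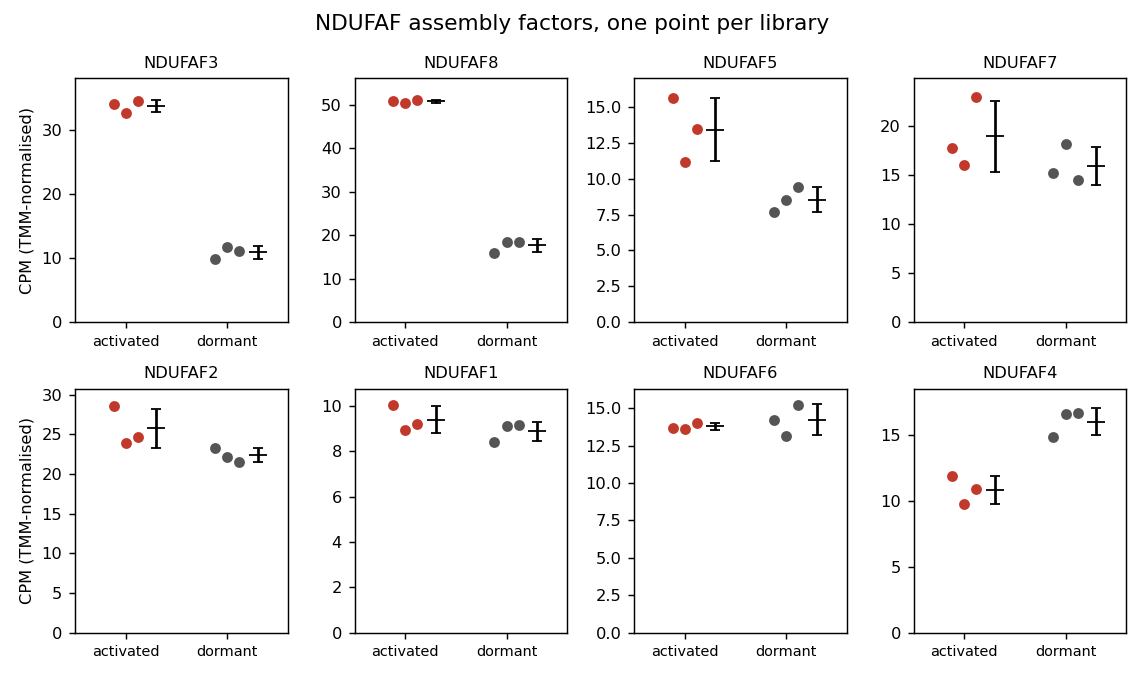
CPM after TMM scaling of the 8 NDUFAF assembly factors in each library, activated in red on the left and dormant in grey on the right, with the mean and SD in black; vertical axes start at 0. NDUFAF3 and NDUFAF8 stand about 3-fold apart between groups, NDUFAF4 is lower in activated libraries, and NDUFAF7, NDUFAF1 and NDUFAF6 overlap.

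Assembly factors of complex I outside the NDUF series also went both ways, beside 36.5% called higher and 37.2% lower over all tested genes. Of 12 listed, 5 rose, 2 fell and 5 did not pass (median log2 fold change 0.09), and with total counts 3 rose and 5 fell. ACAD9, a factor of the same ND2-building complex as NDUFAF1, had the largest rise, at 46.96 ± 2.499 CPM in activated and 15.8 ± 1.02 CPM in dormant cells (SD, n = 3 each), a 2.98-fold change. NUBPL, which is known for a role in iron-sulfur cluster delivery to complex I, had the largest fall, at 14.6 ± 0.772 CPM in activated and 17.6 ± 1.82 CPM in dormant cells (log2 fold change -0.26, adjusted p = 0.0279). Without activated replicate 3 the counts were 3 and 1, and without dormant replicate 2 or dormant replicate 3 only 1 fell.

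Outside the enzyme itself, NDUFA4 and its paralogue NDUFA4L2 moved in opposite directions. NDUFA4, now assigned to cytochrome c oxidase, had 119, 95.7 and 95.9 CPM in activated cells and 67.7, 66.9 and 67.1 CPM in dormant cells, a 1.54-fold rise (adjusted p = 2.56e-06). NDUFA4L2, a paralogue known to be induced by hypoxia (chromosome 12, 57234903 to 57240762), had 0.380, 1.30 and 0.609 CPM in activated cells and 6.28, 7.36 and 7.41 CPM in dormant cells. These values rest on 13, 45 and 20 counts in activated libraries and 235, 286 and 265 counts in dormant libraries. Every activated library was far below every dormant library, a 9.13-fold fall (log2 fold change -3.19 ± 0.31 SE, adjusted p = 2.26e-07). The fall was 7.28-fold without activated replicate 1, 14.1-fold without activated replicate 2 and 8.30-fold without activated replicate 3. Without a dormant library it lay between 8.85-fold and 9.58-fold. The ratio of NDUFA4 to NDUFA4L2 in FPKM was 183, 43.1 and 91.9 in activated libraries and 6.30, 5.31 and 5.29 in dormant libraries (exact permutation p = 0.1, the smallest possible). NDUFC2-KCTD14, the readthrough of NDUFC2 and its neighbour, had 0 counts in every library. With 3 counts as the floor, its level could still reach 0.0295 CPM in the activated group and 0.0268 CPM in the dormant group, for counting error only.

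**Figure D4:**
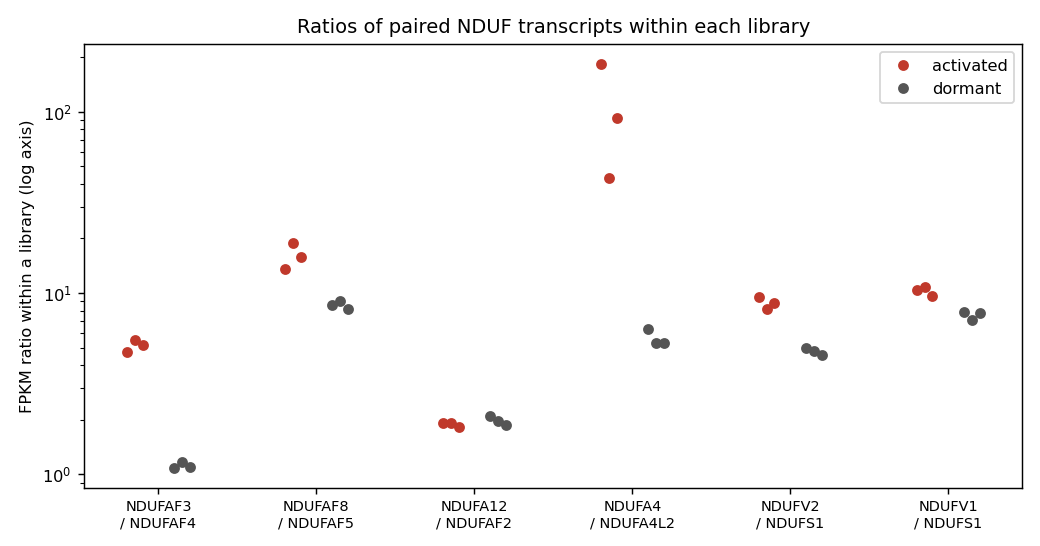
Ratio of 2 transcripts within each library, from the authors' FPKM, on a log axis, activated libraries in red on the left and dormant libraries in grey on the right of each pair. The ratios do not depend on library scaling; that of NDUFAF3 to NDUFAF4 lies between 4.71 and 5.50 in activated and between 1.09 and 1.17 in dormant libraries, and only that of NDUFA12 to NDUFAF2 overlaps between groups.

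Shorter NDUF genes tended to have larger rises. Across the 46 tested members without NDUFA4L2, the log2 fold change had a Pearson correlation of -0.44 and a Spearman correlation of -0.43 with log2 gene length, as a description across genes that share the same 6 libraries. With NDUFA4L2 the values were -0.27 and -0.40, and over all 13336 tested genes they were -0.10 and -0.14. Of 19 members shorter than 1000 bases, 16 rose and 1 fell, and of 28 longer ones 17 rose and 4 fell. Among all tested genes, 52.3% of the 472 below 1000 bases and 35.9% of the 12864 longer ones rose. After a correction for gene length 27 members rose and 6 fell, with a median log2 fold change of 0.24. Over all genes 4934 were higher and 4918 lower after that correction. NDUFAF3, NDUFAF8, NDUFS3, NDUFA3 and NDUFS5 were still called higher under the correction, with log2 fold changes of 1.503, 1.18, 0.85, 1.055 and 0.73.

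**Figure D5:**
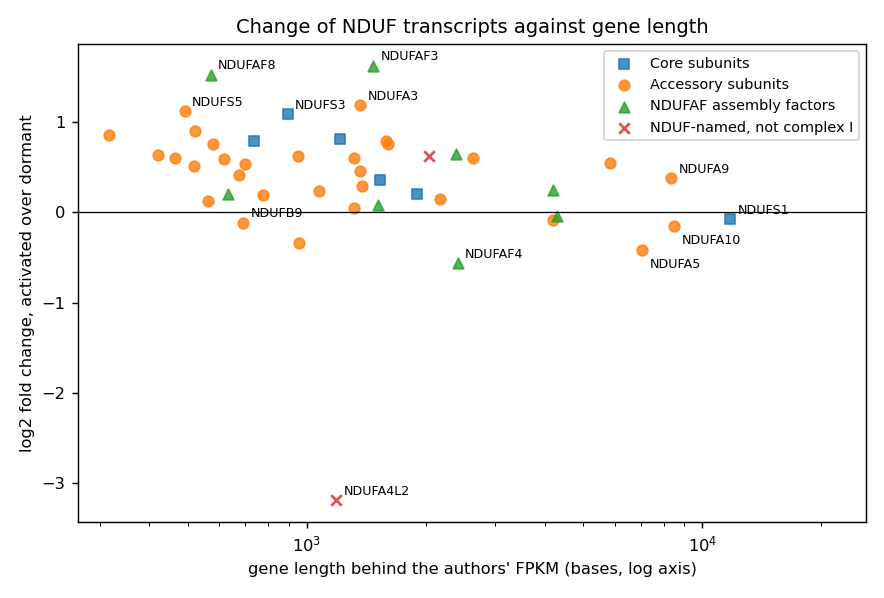
Log2 fold change of 46 of the 47 tested NDUF genes, activated over dormant, against the gene length behind the authors' FPKM on a log axis, with a marker for each class. Most genes below 1000 bases lie above 0. Of the longest genes, NDUFA5, NDUFA10 and NDUFS1 lie below 0 and NDUFA9 and NDUFV3 above it.

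The rest of the respiratory chain moved in the same direction. Of 38 listed subunits of complexes II to V encoded in the nucleus, 33 rose, 1 fell and 4 did not pass, with a median log2 fold change of 0.43. Among all tested genes, 36.5% were called higher and 37.2% lower. With total counts 26 rose and 3 fell, beside 3941 higher and 5998 lower over all genes. After the gene length correction 22 rose and 4 fell, with a median of 0.20, beside 4934 higher and 4918 lower over all genes. By complex, 8 of 9 listed subunits of complex III, 9 of 10 of complex IV and 14 of 15 of ATP synthase rose and none fell, though under total-count scaling 1 subunit of complex III and 1 of ATP synthase were called lower. The largest rise in complex III was that of UQCRQ, at 90.0 ± 6.44 CPM in activated and 51.1 ± 1.22 CPM in dormant cells (SD, n = 3 each). In complex IV it was COX7B, at 107 ± 6.37 CPM in activated and 70.1 ± 0.605 CPM in dormant cells, and in ATP synthase the c-ring gene ATP5MC1, at 117 ± 8.93 CPM in activated and 56.8 ± 1.13 CPM in dormant cells. Complex II was split. SDHC had its largest rise (log2 fold change 0.54) and SDHD its fall (log2 fold change -0.50), while SDHA rose and SDHB did not pass. The difference between complex I and the others was not tested.

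Regulators of mitochondrial biogenesis did not rise as a group. Of 11 listed, 1 rose, 6 fell and 4 did not pass (median log2 fold change -0.19). For comparison, 36.5% of all tested genes were called higher and 37.2% lower. The coactivator PPARGC1A had the largest fall, at 0.711 ± 0.269 CPM in activated and 4.48 ± 1.11 CPM in dormant cells (SD, n = 3 each, log2 fold change -2.65, adjusted p = 2.38e-06), and GABPB1, a subunit of the ETS factor GABP, was the one that rose (log2 fold change 0.25), a call lost without dormant replicate 1 and with total counts. The clusters of the peripheral arm depend on mitochondrial iron-sulfur cluster synthesis. Of 13 genes of that synthesis, 4 rose, 6 fell and 3 did not pass (median -0.05), which is near the shares for all tested genes. BOLA3 had the largest rise, at 27.9 ± 1.03 CPM in activated and 12.6 ± 1.22 CPM in dormant cells, and IBA57 the largest fall, at 6.27 ± 0.659 CPM in activated and 10.3 ± 1.94 CPM in dormant cells. Without activated replicate 3 the median of this list was 0.09.

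Some NDUF values are uncertain because the gene shares sequence with others. By GENCODE v29, 17 of the 48 members share at least 10% of their exon bases with another gene. NDUFS3 shares 19.6% with PTPMT1 on the same strand, which rose 1.12-fold beside the 2.13-fold of NDUFS3. NDUFB11 shares 44.9% with RBM10 on the opposite strand, which rose 1.63-fold beside the 1.51-fold of NDUFB11. NDUFA1 shares 44.5% with RNF113A and NDUFB8 16.3% with HIF1AN, both on the opposite strand, and these neighbours fell by 0.59 and by 0.23 on the log2 scale while NDUFA1 and NDUFB8 rose. On the same strand, NDUFB8 shares 33.8% with AL133352.1, NDUFA7 32.3% with AC010323.1 and NDUFV2 28.4% with AP005263.1. Values of these same-strand neighbours are not given here. Pseudogenes named after them exist for 19 members, most for NDUFA5 and NDUFB4 with 12 each and for NDUFS5 with 6, and the sources used here do not say how reads shared with them were counted.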

How the data were processed

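Per the labels' protocols, TRIzol was used for total RNA and a VAHTS Universal V6 kit for the libraries. The authors deposited whole-number counts per gene symbol and, in a second table, FPKM. Within each library the deposited FPKM equalled the count over a fixed gene length and over the library's total. The tools HISAT2, HTSeq and fastp and the build GRCh38 are named per the submitters' processing notes; versions, annotation and strand setting: not given in the sources used here. Total counts were 34128471 to 36667725 per library.

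Activated and dormant libraries were compared over all genes with edgeR 4.0.16 in R 4.3.3 (quasi-likelihood test, TMM factors, default filter on low counts by group, Benjamini-Hochberg adjustment, threshold 0.05). Standard errors were derived from the fold change and its F statistic. Simulated counts with known changes were used to check the fit. Alternatives were DESeq2 size factors, total counts, DESeq2 1.42.0, 2 other count filters (none, or 1 CPM in 3 libraries), the replicate number as a block, each library left out, limma 3.58.1 on FPKM as log2 with a pseudocount of 1 or 0.1 (genes averaging 0.5 FPKM or more, or unfiltered), and a loess correction for gene length with a span of 0.3. Levels are CPM between libraries and FPKM between genes. Replicate pairs differed by more than sampling noise (chi-square per degree of freedom 7.39 to 22.5 among activated and 4.87 to 10.2 among dormant libraries).

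The members, classes and gene lists were chosen with earlier results of these data known. Counts and medians include 1 core subunit whose own values are not reported here. Values in every library are given for the other core subunits, NDUFAF genes, NDUFA4, NDUFA4L2, the 6 accessory subunits with the largest changes and every member that fell or did not pass; of each list the largest rise and the largest fall past the threshold are named. Coordinates and promoters, 1-based, are RefSeq's for GRCh38.p14, and exon overlaps are from GENCODE v29.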

Additional observations from a re-analysis of the deposited data

How the results depend on the processing

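Of 752 values of the 47 tested members under the alternatives, 680 stayed on the same side of the threshold with the same sign, 33 lost and 15 gained a call, and 24 turned sign, of which 23 were not past the threshold. The exceptions lay in 16 members. After the gene length correction the signs of NDUFAB1 (-0.071), NDUFAF2 (-0.12), NDUFA12 (-0.23, called lower), NDUFA8 (-0.086), NDUFAF1 (-0.041) and NDUFS1 (0.079) turned. With total counts those of NDUFA12 (-0.0086), NDUFA8 (-0.086) and NDUFAF1 (-0.060) turned. In the limma fits, NDUFC2 was at -0.0066 with log2(FPKM + 1) and -0.0094 with log2(FPKM + 0.1), NDUFA12 at -0.0096 and -0.0098, NDUFA8 at -0.086 and -0.089, and NDUFAF1 at -0.052 and -0.059. With 1 library left out, NDUFC2 ranged from -0.027 to 0.24, NDUFA8 from -0.014 to 0.12 and NDUFAF6 from -0.094 to 0.013. DESeq2 size factors, the DESeq2 test, both other count filters and the replicate block kept all 33 rises and 5 falls. The number of changed genes, 9830, lay between 9109 and 10009 under alternatives that kept all libraries, and between 9298 and 9756 with 1 library left out. With the replicate block 9789 genes changed. Libraries with the same number did not deviate together (r of 0.0023, 0.0177 and 0.0033), so no pairing was assumed.

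With total counts the falls were 8 for all members, 1 for core and 5 for accessory subunits. Limma on filtered log2(FPKM + 1) or log2(FPKM + 0.1), which carry the same totals, gave the same 8, 1 and 5, and unfiltered log2(FPKM + 1) gave 1 for core subunits. Median log2 fold changes of all members, core subunits, accessory subunits and assembly factors were 0.33, 0.33, 0.38 and 0.085 with total counts, 0.24, 0.39, 0.21 and 0.12 after the length correction, 0.33, 0.33, 0.34 and 0.070 with log2(FPKM + 1), filtered or not, and 0.34, 0.34, 0.37 and 0.078 with log2(FPKM + 0.1). Leaving out 1 library gave 30 to 34 rises and 4 to 6 falls over all members, and medians of 0.41 to 0.51 for all members, 0.43 to 0.53 for core subunits and 0.44 to 0.59 for accessory subunits.

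For complexes II to V the falls were 3 with total counts and either filtered FPKM setting, 2 with unfiltered log2(FPKM + 1) and 4 after the length correction, and the median was 0.29, 0.29 (all FPKM settings) and 0.20. For the other assembly factors of complex I, rises were 3 with total counts and all FPKM settings, falls were 5 with these and 4 after the length correction, and the median was -0.053 with total counts, -0.051 with log2(FPKM + 1), -0.054 with log2(FPKM + 0.1) and -0.036 after the correction; leaving out 1 library gave 3 to 6 rises and 1 to 3 falls. Of the regulators of mitochondrial biogenesis 0 rose with total counts and all FPKM settings, 3 rose after the length correction and 0 to 1 with 1 library left out, and their median was -0.33 with total counts and -0.30 with unfiltered log2(FPKM + 1). The median of iron-sulfur cluster synthesis was -0.19 with total counts and with log2(FPKM + 0.1), and -0.15 to 0.091 with 1 library left out. With total counts, scaling alone shifted all genes; the cause of the other differences was not tested. NDUFA4L2 rested on few counts in activated libraries (13, 45 and 20).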
